A study of Mus musculus with 15 samples.

Results

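Gp2, Plet1, Cpm, Cdh1, Epcam and Ppp1r1a are 6 genes whose signal was highest in the CD103+CD11b+ DCs among the sorted myeloid populations of the mouse small intestinal lamina propria (LP). They were selected on these same arrays, by their high signal in the CD103+CD11b+ DCs, and are 6 of 19938 genes measured. All 6 are also on the study's own list of genes unique to this subset, which was made from the same arrays. That list set CD103+CD11b+ DCs against the CD103+CD11b- and CD103-CD11b+ DCs only, without CD103-CD11b- DCs and CD64+ macrophages (mϕ). Each was read from 1 probeset (the group of probes that reports a gene), and none had another probeset of its own. The comparison of CD103+CD11b+ DCs with other populations therefore describes how the genes were chosen and carries no test for them.

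The arrays measured RNA of 5 populations sorted from the LP of wild-type C57BL/6 mice at steady state, with 3 arrays each: CD103+CD11b+ DCs, CD103+CD11b- DCs, CD103-CD11b+ DCs, CD103-CD11b- DCs and CD64+ mϕ. Across the study as a whole, the mice were young adults of both sexes. All populations shared the genotype, received no treatment and were sorted by flow cytometry after EDTA had stripped the epithelium, fat and Peyer's patches had been removed and the tissue had been digested with collagenase. DCs were gated as CD11c+MHCII+CD64- cells and mϕ as CD64+CD11b+ cells without Ly6C. Each value is the log2 signal of 1 array after normalization, so a difference of 1 is a doubling, and how many mice gave each array is not stated, so p-values measure the spread between these samples.

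CD103+CD11b+ DCs are a gut subset that carries antigen from the LP to the mesenteric lymph node. CD103 is the alpha chain of the integrin that binds E-cadherin, the junction protein of epithelial cells, and CD11b is the alpha chain of a complement receptor. Gp2, Plet1 and Cpm encode proteins held on the cell surface by a GPI anchor, Cdh1 and Epcam encode transmembrane adhesion proteins best known from epithelia, and Ppp1r1a encodes an inhibitor of protein phosphatase 1 inside the cell. By flow cytometry, the study could not reliably detect surface E-cadherin or GP2. Its EpCAM antibodies did not adequately separate CD103+CD11b+ DCs from CD103-CD11b+ DCs. RNA of other cells that reaches a sorted sample is measured with the rest, and in bulk samples fewer cells of a type and less RNA per cell cannot be told apart.

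The promoters of 4 of the 6 genes are shown because the transcripts were all highest in 1 population, so that the letters around the start sites can be read side by side. The windows are RefSeq's on the mouse build GRCm38.p6, each 300 bases, of which 250 lie before the start site, and no window was used here for Cdh1 and Ppp1r1a. Capitals mark the letters of 8 motifs searched on both strands: CAGGTG, an E-box bound by ZEB and SNAI factors, CAGAC and GTCTAGAC of SMAD proteins, TGTGGTT of RUNX proteins, GAGGAAGT of PU.1, TGACTCA of AP-1, TATAAA of the TATA box, and the ETS-IRF composite element. The 4 windows, each read in the direction of its gene, are as follows.
Gp2 (chr7:119459223-119459522, minus strand): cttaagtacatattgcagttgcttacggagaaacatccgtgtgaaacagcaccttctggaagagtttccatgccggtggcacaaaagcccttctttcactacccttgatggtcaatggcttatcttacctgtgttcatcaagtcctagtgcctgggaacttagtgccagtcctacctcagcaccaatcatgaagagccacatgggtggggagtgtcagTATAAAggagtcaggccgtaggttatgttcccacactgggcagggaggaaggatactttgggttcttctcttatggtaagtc
Plet1 (chr9:50494275-50494574, plus strand): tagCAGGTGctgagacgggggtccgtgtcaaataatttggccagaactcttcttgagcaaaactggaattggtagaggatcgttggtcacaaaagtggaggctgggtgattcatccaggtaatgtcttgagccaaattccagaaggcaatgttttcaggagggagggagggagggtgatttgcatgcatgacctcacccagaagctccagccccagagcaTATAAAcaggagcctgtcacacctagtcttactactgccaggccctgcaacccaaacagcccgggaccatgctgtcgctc
Cpm (chr10:117629250-117629549, plus strand): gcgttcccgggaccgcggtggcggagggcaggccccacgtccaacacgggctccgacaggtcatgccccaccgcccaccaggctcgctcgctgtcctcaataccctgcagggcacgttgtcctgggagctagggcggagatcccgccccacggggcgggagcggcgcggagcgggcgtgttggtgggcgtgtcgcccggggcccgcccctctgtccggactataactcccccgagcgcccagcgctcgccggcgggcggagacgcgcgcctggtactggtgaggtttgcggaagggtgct
Epcam (chr17:87635729-87636028, plus strand): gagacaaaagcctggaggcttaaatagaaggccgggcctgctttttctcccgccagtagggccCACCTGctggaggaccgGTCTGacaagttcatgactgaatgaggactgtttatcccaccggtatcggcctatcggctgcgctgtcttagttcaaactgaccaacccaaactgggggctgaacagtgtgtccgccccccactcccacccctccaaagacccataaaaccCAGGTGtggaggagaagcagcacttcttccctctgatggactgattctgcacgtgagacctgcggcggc

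Gp2 and Plet1 each held TATAAA on the strand of the gene, with its first base at -32 in Gp2 and -30 in Plet1 relative to the start site, a placing usual for a TATA box, while 13.6% of all 32851 promoter windows of this length held these letters on either strand. Plet1 held CAGGTG once, at -247, and Epcam held it at -187 and -19, once on each strand, against 20.2% of all windows with these letters. The window of Epcam also held CAGAC at -170, which 49.6% of all windows did. Cpm, whose window was rich in G and C, held none of the 8 motifs, and none of the 4 windows held the letters of the RUNX, PU.1, AP-1 or ETS-IRF motifs or the longer SMAD motif, which 5.27%, 3.20%, 5.20%, 2.72% and 0.213% of all windows held. The searched motifs overlapped at no place in these windows. These are matches of letters and not measured binding sites.

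The sort was checked on the genes of its own markers. Itgae, which encodes CD103, averaged 10.38 ± 0.16 in the CD103+CD11b+ DCs and 10.90 ± 0.06 in the CD103+CD11b- DCs, against 7.84 ± 0.42 in the CD103-CD11b+ DCs, 8.76 ± 0.18 in the CD103-CD11b- DCs and 5.09 ± 0.20 in mϕ (SD, n = 3 each). Itgam, which encodes CD11b, averaged 9.56 ± 0.11 in the CD103+CD11b+ DCs, against 4.93 ± 0.16 in the CD103+CD11b- DCs, 9.53 ± 0.02 in the CD103-CD11b+ DCs, 6.64 ± 0.33 in the CD103-CD11b- DCs and 10.24 ± 0.17 in mϕ. Fcgr1, which encodes CD64, was at most 5.02 on any DC array and at least 8.69 in mϕ. The order of these levels followed the labels, but populations negative for a marker were not alike. Itgae was higher in the CD103-CD11b+ and CD103-CD11b- DCs than in mϕ, and Itgam was higher in the CD103-CD11b- than in the CD103+CD11b- DCs.

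Gp2 encodes glycoprotein 2, which lies on the zymogen granules of pancreatic acinar cells and on M cells, where it binds fimbriated bacteria. Its log2 signal was 8.48, 8.04 and 7.47 on the 3 arrays of CD103+CD11b+ DCs. It was 3.59, 5.30 and 3.92 in the CD103+CD11b- DCs, 4.61, 4.10 and 4.40 in the CD103-CD11b+ DCs, 3.84, 5.21 and 4.35 in the CD103-CD11b- DCs and 3.91, 3.85 and 3.71 in mϕ. The 3 arrays of CD103+CD11b+ DCs stood alone, the lowest of them 2.17 above the highest of the other 12, and the other 4 populations overlapped, except that all mϕ arrays lay below those of CD103-CD11b+ DCs. The mean was higher in the CD103+CD11b+ DCs by 3.73 than in the CD103+CD11b- DCs, by 3.63 than in the CD103-CD11b+ DCs, by 3.53 than in the CD103-CD11b- DCs and by 4.17 than in mϕ, or 11.6-fold to 18.0-fold. Across all genes, 311 or 1.56% had all 3 arrays of CD103+CD11b+ DCs above the other 12, and since the genes were selected for this, the share says nothing more about them.

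Plet1 encodes a GPI-anchored protein known from placenta and from epithelial progenitors. Its log2 signal was 11.91, 11.58 and 11.36 in the CD103+CD11b+ DCs. It was 8.37, 8.63 and 8.21 in the CD103+CD11b- DCs, 9.83, 8.86 and 8.80 in the CD103-CD11b+ DCs, 10.01, 10.47 and 10.63 in the CD103-CD11b- DCs and 5.40, 5.97 and 5.62 in mϕ. Unlike Gp2, Plet1 fell into 5 separate bands, highest in the CD103+CD11b+ DCs, next in the CD103-CD11b- subset, then in CD103-CD11b+ cells, then in CD103+CD11b- cells and lowest in mϕ, with no overlap between any of them. The gap between the lowest array of CD103+CD11b+ DCs and the highest other array, CD103-CD11b- replicate 3, was 0.73. CD103+CD11b+ DCs were higher by 1.25 than the CD103-CD11b- DCs, by 2.46 than the CD103-CD11b+ DCs, by 3.22 than the CD103+CD11b- DCs and by 5.95, or 62.0-fold, than mϕ.

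Cpm encodes carboxypeptidase M, a GPI-anchored enzyme that removes arginine or lysine from the end of peptides. Its log2 signal was 7.92, 8.46 and 7.71 in the CD103+CD11b+ DCs. It was 4.09, 5.06 and 4.90 in the CD103+CD11b- DCs, 5.62, 5.59 and 5.26 in the CD103-CD11b+ DCs, 4.18, 4.31 and 4.73 in the CD103-CD11b- DCs and 4.12, 4.17 and 3.86 in mϕ. CD103+CD11b+ DCs were again apart, by 2.09 at the nearest array, and CD103-CD11b+ DCs, the other CD11b+ subset, lay above the remaining 3 populations on every array. The mean was higher in the CD103+CD11b+ DCs by 2.54 than in the CD103-CD11b+ DCs, by 3.35 than in the CD103+CD11b- DCs, by 3.62 than in the CD103-CD11b- DCs and by 3.98 than in mϕ.

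Cdh1 encodes E-cadherin, the ligand of CD103. Its log2 signal was 9.30, 8.78 and 8.93 in the CD103+CD11b+ DCs. It was 6.97, 6.62 and 6.89 in the CD103+CD11b- DCs, 7.61, 7.57 and 7.71 in the CD103-CD11b+ DCs, 7.19, 6.80 and 6.98 in the CD103-CD11b- DCs and 5.79, 7.16 and 5.89 in mϕ. The nearest array, CD103-CD11b+ replicate 3, lay 1.08 below the lowest of CD103+CD11b+ DCs. CD103-CD11b+ DCs lay above the remaining 3 populations on every array, and replicate 2 of mϕ stood 1.32 above the mean of the other 2 mϕ arrays. CD103+CD11b+ DCs were higher by 1.38 than the CD103-CD11b+ DCs, by 2.02 than the CD103-CD11b- DCs, by 2.18 than the CD103+CD11b- DCs and by 2.72 than mϕ.

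Epcam encodes the epithelial cell adhesion molecule, which is also found on Langerhans cells. Its log2 signal was 8.28, 8.19 and 8.31 in the CD103+CD11b+ DCs. It was 7.38, 6.95 and 7.15 in the CD103+CD11b- DCs, 7.77, 7.20 and 7.59 in the CD103-CD11b+ DCs, 7.67, 7.38 and 7.38 in the CD103-CD11b- DCs and 5.22, 7.39 and 5.86 in mϕ. Epcam had the smallest gap of the 6 genes, 0.42, and the smallest differences, with CD103+CD11b+ DCs higher by 0.74 than the CD103-CD11b+ DCs, by 0.78 than the CD103-CD11b- DCs, by 1.10 than the CD103+CD11b- DCs and by 2.10 than mϕ. The other 3 DC subsets overlapped or met at 7.38, and replicate 2 of mϕ lay 1.85 above the mean of the other 2 mϕ arrays, inside the range of the DCs.

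Ppp1r1a encodes inhibitor-1, which blocks protein phosphatase 1 once protein kinase A has phosphorylated it. Its log2 signal was 8.22, 7.83 and 7.50 in the CD103+CD11b+ DCs. It was 6.19, 6.06 and 6.19 in the CD103+CD11b- DCs, 6.07, 5.77 and 6.02 in the CD103-CD11b+ DCs, 6.10, 6.02 and 5.84 in the CD103-CD11b- DCs and 5.36, 5.11 and 5.02 in mϕ. CD103+CD11b+ DCs lay at least 1.31 above every other array, the other 3 DC subsets overlapped, and all mϕ arrays lay below all DC arrays. The mean was higher in the CD103+CD11b+ DCs by 1.70 than in the CD103+CD11b- DCs, by 1.86 than in the CD103-CD11b- DCs, by 1.90 than in the CD103-CD11b+ DCs and by 2.69 than in mϕ.

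**Figure D1:**
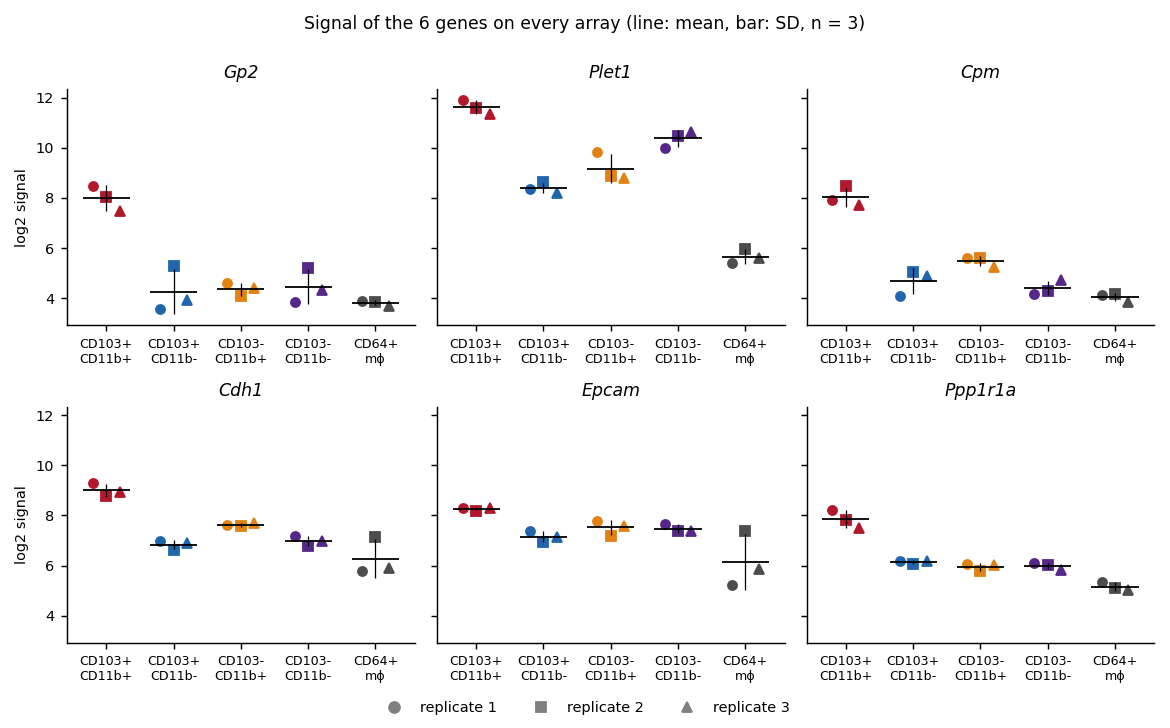
Log2 signal of the 6 genes (vertical axis) in the 5 populations (horizontal axis), with 1 point for each array, shaped by replicate number, a horizontal line at the mean and a bar of 1 SD (n = 3). All 6 genes were highest in the CD103+CD11b+ DCs; Plet1 forms 5 bands, and replicate 2 of mϕ stands high for Cdh1 (7.16) and Epcam (7.39).

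The choice of the genes did not directly use differences among the other 4 populations. The genes were therefore tested among them, in 6 comparisons by limma with Benjamini-Hochberg adjustment over all 19938 genes. The study's list, which holds all 6, favours genes alike in CD103+CD11b- and CD103-CD11b+ DCs. The comparison of those subsets is thus not independent of the choice. A gene was called where the log2 difference passed 1 in size at an adjusted p under 0.01. All 6 genes had their lowest mean in mϕ. Plet1 was called in 4 of the 6 comparisons, Cdh1 and Cpm in 1 each, and Gp2, Epcam and Ppp1r1a in none.

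Plet1 was lower in mϕ than in each of the 3 DC subsets. The difference of mϕ was -4.71 from the CD103-CD11b- DCs (adjusted p = 3.5e-09), -3.50 from the CD103-CD11b+ DCs (adjusted p = 1.1e-07) and -2.74 from the CD103+CD11b- DCs (adjusted p = 8.3e-07, SE 0.25 each). Among the DC subsets, Plet1 was 3.92-fold higher in CD103-CD11b- than in the CD103+CD11b- DCs, a log2 difference of 1.97 with a 95% confidence interval of 1.43 to 2.51 and a limma adjusted p of 8.8e-05. It was 1.21 above CD103-CD11b+ DCs in the CD103-CD11b- DCs, which missed the threshold with a limma adjusted p of 0.0145 and passed it without replicate 1 of CD103-CD11b+ DCs (1.54, adjusted p = 0.00123) or without replicate 2 of mϕ (1.21, adjusted p = 0.00986). CD103-CD11b+ DCs were 0.76 above CD103+CD11b- DCs (limma adjusted p = 0.0752), which missed the threshold although their arrays did not overlap.

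Cpm was lower in mϕ than in the CD103-CD11b+ DCs by 2.71-fold, a log2 difference of -1.44 (SE 0.24, limma adjusted p = 4.5e-04). CD103-CD11b- DCs had a difference of -1.08 from the CD103-CD11b+ DCs for Cpm (limma adjusted p = 0.0196), which passed the threshold without replicate 1 of CD103+CD11b- DCs (adjusted p = 0.00499), an array outside that comparison. The difference of CD103-CD11b+ from the CD103+CD11b- DCs was 0.80 (limma adjusted p = 0.0430), and the remaining 3 differences of Cpm were -0.63 to -0.28.

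Cdh1 was lower in mϕ than in the CD103-CD11b+ DCs by 2.54-fold, a log2 difference of -1.34 (SE 0.27, limma adjusted p = 0.00211). This call was lost without replicate 3 of CD103-CD11b+ DCs (-1.30, adjusted p = 0.0109), replicate 1 of mϕ (-1.10, adjusted p = 0.0130) or replicate 3 of mϕ (-1.15, adjusted p = 0.0127). The call was also lost with limma's treat at a log2 limit of 1. The methods' t-test after Benjamini-Hochberg adjustment did not call it either (adjusted p = 0.231). For Epcam, mϕ differed from the CD103-CD11b+ DCs by -1.36 (limma adjusted p = 0.0170), from the CD103-CD11b- DCs by -1.32 (adjusted p = 0.0172) and from the CD103+CD11b- DCs by -1.0 (adjusted p = 0.0656). Among the DC subsets neither gene was called: the limma adjusted p was 0.0782 to 0.850 for Cdh1, with CD103-CD11b+ DCs 0.80 above CD103+CD11b- DCs at most, and 0.638 to 0.983 for Epcam, whose 3 means lay within 0.36. The spread behind these values was shared by all 15 arrays, and the SD of Epcam was 1.11 in mϕ against 0.06 to 0.29 in the DC subsets. With the mean of Krt8 and Vil1 as a covariate, CD103-CD11b+ minus CD103+CD11b- DCs was called for both genes, at 1.44 for Cdh1 (limma adjusted p = 1.1e-04) and 1.24 for Epcam (adjusted p = 0.00388).

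Replicate 2 of mϕ weighed on these Epcam values but did not alone decide the calls. Without it, Epcam in mϕ differed by -1.98 from the CD103-CD11b+ DCs (limma adjusted p = 3.4e-06), by -1.94 from the CD103-CD11b- DCs (adjusted p = 3.6e-06) and by -1.62 from the CD103+CD11b- DCs (adjusted p = 1.7e-05), all past both thresholds. Cdh1 in mϕ against the CD103-CD11b- DCs was likewise -0.71 with that array (limma adjusted p = 0.0823) and -1.15 without it (adjusted p = 6.0e-05). With every array kept, a filter on dim genes also called Epcam in mϕ against the CD103-CD11b+ DCs (-1.36, limma adjusted p = 0.00841). It did so against the CD103-CD11b- DCs as well (-1.32, adjusted p = 0.00878). Array weights called both too (-1.84 and -1.76, limma adjusted p = 3.3e-04 and 3.8e-04).

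Ppp1r1a in mϕ passed the p threshold but not the fold threshold: its difference was -0.98 from the CD103+CD11b- DCs (limma adjusted p = 1.8e-04), -0.82 from the CD103-CD11b- DCs (adjusted p = 9.6e-04) and -0.79 from the CD103-CD11b+ DCs (adjusted p = 0.00166). The first of these passed both thresholds without replicate 2 of CD103+CD11b- DCs (-1.03, adjusted p = 7.1e-04) or replicate 1 of mϕ (-1.08, adjusted p = 2.7e-04). The 3 DC subsets differed from each other by at most 0.20 in Ppp1r1a. No difference of Gp2 between the 4 populations was called by limma, with values of -0.64 to 0.20 and limma adjusted p of 0.324 to 0.961, and the 95% confidence intervals together spanned -1.49 to 1.04. At an unadjusted p under 0.05 limma had none and the methods' t-test had 1, mϕ against the CD103-CD11b+ DCs (-0.54, unadjusted p = 0.0267), whose arrays did not overlap.

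By comparison, 3 of the 6 genes were called between mϕ and CD103-CD11b+ DCs, where 5.18% of all genes were, and 1 of 6 both between mϕ and CD103+CD11b- DCs (7.03% of all genes) and between mϕ and CD103-CD11b- DCs (6.30%). Between CD103-CD11b- and CD103+CD11b- DCs 1 of 6 was called (2.66%). No member was called by limma between CD103-CD11b+ and CD103+CD11b- DCs (3.17% of all genes). There 3 had an unadjusted p under 0.05 by limma and 1 by the methods' t-test, which had 3888 of all 19938 genes. None was called between CD103-CD11b- and CD103-CD11b+ DCs either (0.808%). There 3 had an unadjusted p under 0.05, both by limma and by the methods' t-test, which had 1960 of all 19938 genes. For limma only the share of called genes is given, not the share at an unadjusted p under 0.05. The choice favoured genes alike in CD103-CD11b+ and CD103+CD11b- DCs, so the lack of calls between those subsets is no finding about the members.

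**Figure D2:**
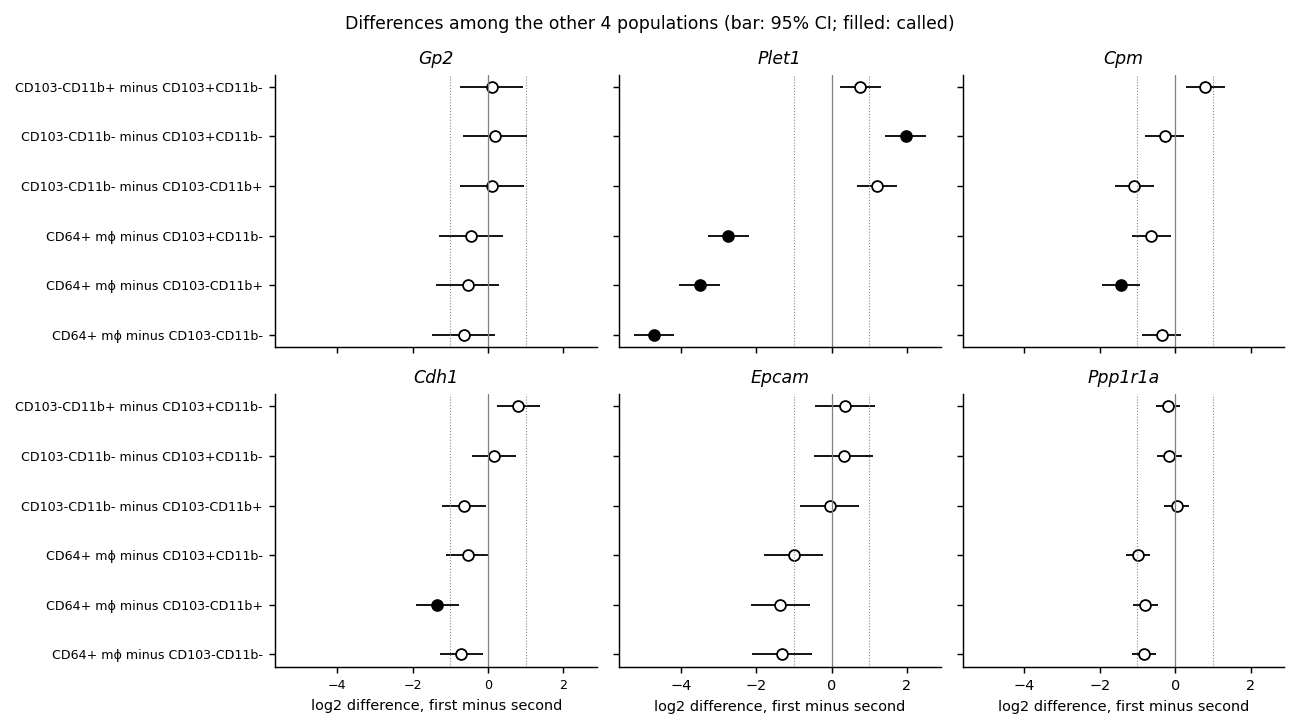
Log2 difference (horizontal axis) of each of the 6 genes in the 6 comparisons among the other 4 populations (vertical axis, first population minus second), with 95% confidence intervals, called differences filled and dotted lines at log2 differences of -1 and 1. Plet1 holds 4 of the 6 called differences, the largest of them -4.71 in mϕ against the CD103-CD11b- DCs.

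Krt8, a keratin of simple epithelia, and Vil1, which encodes villin of the brush border, were measured in the same samples as signs of epithelial RNA. Krt8 was 9.36, 8.78 and 9.45 in the CD103+CD11b+ DCs, against 9.23, 8.74 and 9.13 in the CD103+CD11b- DCs, 8.35, 7.91 and 8.21 in the CD103-CD11b+ DCs, 9.10, 8.12 and 8.63 in the CD103-CD11b- DCs and 7.70, 9.70 and 7.23 in mϕ. Vil1 was 5.34, 5.62 and 6.21 in the CD103+CD11b+ DCs, against 5.72, 5.72 and 6.11 in the CD103+CD11b- DCs, 5.04, 4.95 and 4.96 in the CD103-CD11b+ DCs, 5.19, 5.01 and 5.23 in the CD103-CD11b- DCs and 5.49, 6.46 and 5.77 in mϕ. The mean of Krt8, like those of the 6 genes, was highest in the CD103+CD11b+ DCs (9.20, against 9.03 in the CD103+CD11b- DCs). The mean of Vil1 was highest in mϕ (5.91). Unlike the 6 genes, both overlapped between the 2 CD103+ subsets, and the highest array for both was replicate 2 of mϕ.

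Between CD103+CD11b+ and CD103+CD11b- DCs, Krt8 differed by 0.16 (95% confidence interval -0.82 to 1.14, limma adjusted p = 0.905) and Vil1 by -0.13 (-0.62 to 0.36, adjusted p = 0.835). All 6 genes were higher in the CD103+CD11b+ DCs in that same comparison, Epcam by 1.10 and Cdh1 by 2.18. Against CD103-CD11b+ DCs, in contrast, Krt8 was 1.04 and Vil1 0.74 higher on average in the CD103+CD11b+ DCs, and every array of CD103+CD11b+ DCs lay above every array of CD103-CD11b+ DCs for both (limma adjusted p = 0.496 and 0.184). The differences from the CD103-CD11b- DCs were 0.58 for Krt8 and 0.58 for Vil1 (limma adjusted p = 0.622 and 0.190), and those from mϕ were 0.99 and -0.19 (adjusted p = 0.175 and 0.694). Without replicate 2 of mϕ, Krt8 was 1.73 higher in the CD103+CD11b+ DCs than in mϕ (limma adjusted p = 2.2e-04). The spread that limma used was shared by all 15 arrays, also between DC subsets. For Krt8 the SD was 1.31 in mϕ against 0.23 to 0.49 in the DC subsets, which widened every Krt8 interval. Between CD103+CD11b+ and CD103-CD11b+ arrays alone, the methods' t-test gave an unadjusted p of 0.0134 for Krt8 and 0.0458 for Vil1.

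The whole epithelial list, 23 markers, all measured, likewise overlapped between the CD103+ subsets. Its mean log2 signal was 6.42 to 6.95 in the CD103+CD11b+ DCs, against 6.33 to 6.74 in the CD103+CD11b- DCs, 5.76 to 6.02 in the CD103-CD11b+ DCs, 5.84 to 6.37 in the CD103-CD11b- DCs and 5.97 to 7.11 in mϕ. The median difference over the list was 0.02 against the CD103+CD11b- DCs, 0.68 against the CD103-CD11b+ DCs, 0.45 against the CD103-CD11b- DCs and 0.29 against mϕ, beside medians of 0.03, -0.01, 0.01 and 0.01 over all genes. No marker was called by limma between CD103+CD11b+ DCs and any other DC subset, where 3.20% (CD103+CD11b-), 0.461% (CD103-CD11b+) and 1.93% (CD103-CD11b-) of all genes were. At an unadjusted p under 0.05, 0, 9 and 4 of the 23 were higher in the CD103+CD11b+ DCs by limma. The methods' t-test had 0, 10 and 3, beside 4288, 1880 and 2939 of all 19938 genes in either direction. Against mϕ, where 5.68% of all genes were called, Fabp1, a fatty acid-binding protein of enterocytes, was lower in the CD103+CD11b+ DCs (-1.99, limma adjusted p = 0.00108), and without replicate 2 of mϕ 8 of the 23 were higher, Krt8, Krt18 and Krt19 among them, and 2 lower, Fabp1 and Fabp2.

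Goblet and Paneth cell markers, 11 measured of 12, were called by limma in none of the comparisons of CD103+CD11b+ DCs. Their median difference was 0.01 against the CD103+CD11b- DCs and 1.08 against the CD103-CD11b+ DCs, where 3 had an unadjusted p under 0.05 by limma and 4 by the methods' t-test. Between CD103+CD11b+ DCs and mϕ the median was 1.43, with 7 at an unadjusted p under 0.05 by limma and 0 by the methods' t-test. Replicate 2 of mϕ stood apart here too. The mean of the 11 markers was 6.43, 9.33 and 6.45 in mϕ, against 8.12 to 9.18 in the CD103+CD11b+ DCs. The 16 measured of 20 pancreatic acinar markers were also called in none, with no unadjusted p under 0.05 by either test, and their signal varied widely within populations. The mean over the list was 5.29, 7.49 and 6.65 in the CD103+CD11b+ DCs, 4.87, 8.51 and 5.19 in the CD103+CD11b- DCs, 4.85, 4.90 and 7.26 in the CD103-CD11b+ DCs, 5.47, 8.26 and 6.02 in the CD103-CD11b- DCs and 4.85, 6.74 and 4.95 in mϕ.

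**Figure D3:**
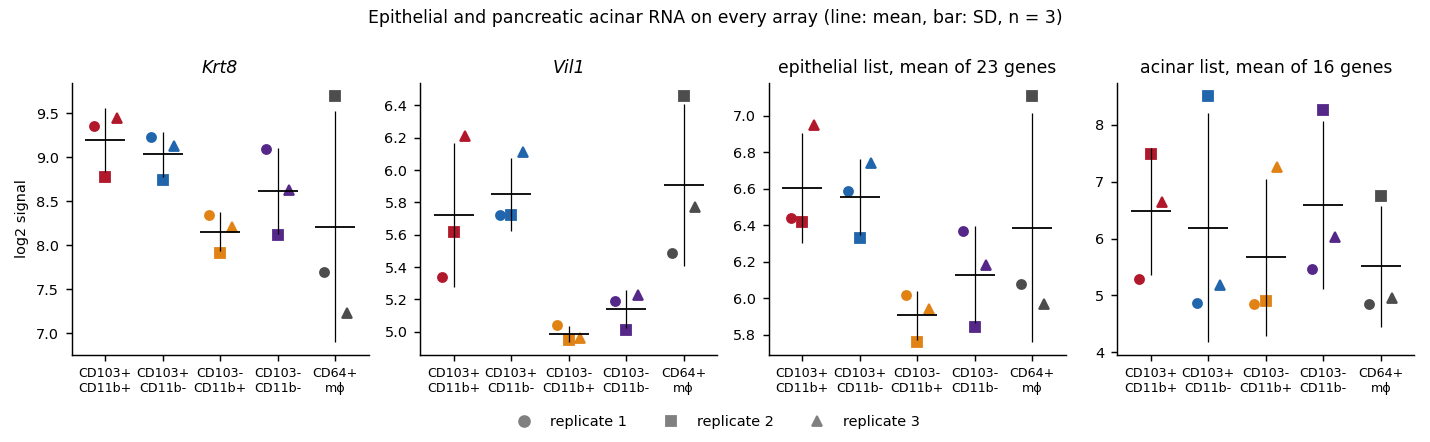
Log2 signal (vertical axes, which differ between panels) of Krt8, Vil1, the mean of the 23 epithelial markers and the mean of the 16 acinar markers in the 5 populations, with 1 point for each array, a line at the mean and a bar of 1 SD (n = 3). Both CD103+ subsets were alike in epithelial RNA (list means of 6.42 to 6.95 and 6.33 to 6.74), and acinar RNA varied between arrays of every population.

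Cdh1 and Epcam moved with epithelial RNA within populations, and none of the other 4 genes had a positive correlation above 0.17 with it. With the mean of each population removed, the correlation with the mean of Krt8 and Vil1 over the 15 arrays was 0.87 for Epcam and 0.87 for Cdh1, and -0.32 for Gp2, 0.17 for Plet1, -0.06 for Cpm and -0.16 for Ppp1r1a. These values describe 15 arrays that share their processing, and replicate 2 of mϕ weighed on them: over the 12 DC arrays they were 0.59 for Epcam, 0.45 for Cdh1, -0.71 for Gp2, -0.26 for Plet1, -0.40 for Cpm and -0.19 for Ppp1r1a.

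On replicate 2 of mϕ, Krt8 was 2.24 and Vil1 0.83 above the mean of the other 2 mϕ arrays. On the same array Epcam was 1.85, Cdh1 1.32 and Plet1 0.46 higher, whereas Cpm was 0.18 higher, Gp2 was 0.04 higher and Ppp1r1a differed by -0.08. Ctrb1, an acinar protease precursor, was 5.37 higher there as well.

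The difference of CD103+CD11b+ DCs was computed once more with the mean of Krt8 and Vil1 as a covariate, which assumes the same slope in all populations. Against CD103-CD11b+ DCs, Epcam was then -0.16 in place of 0.74 and Cdh1 was 0.73 in place of 1.38; on the 12 DC arrays alone, a setting added after seeing the data, Epcam was 0.32 and Cdh1 1.07. The mean of Krt8 and Vil1 was 7.20 to 7.83 in the CD103+CD11b+ DCs and 6.43 to 6.70 in the CD103-CD11b+ DCs, so the ranges did not overlap and this value extends the slope beyond what either population held. Against CD103-CD11b- DCs, Epcam was 0.20 and Cdh1 1.59 with the covariate, and 0.50 and 1.82 on the DC arrays alone. Against CD103+CD11b- DCs, whose epithelial RNA was alike, the covariate left Epcam at 1.08 and Cdh1 at 2.17.

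Gp2, Plet1, Cpm and Ppp1r1a kept differences of 3.73, 3.21, 3.35 and 1.70 from the CD103+CD11b- DCs, of 3.99, 2.34, 2.58 and 1.96 from the CD103-CD11b+ DCs and of 3.77, 1.17, 3.65 and 1.90 from the CD103-CD11b- DCs with the covariate. On the DC arrays alone, Gp2 was 5.24 above CD103-CD11b+ DCs and 4.58 above CD103-CD11b- DCs, against 3.63 and 3.53 without the covariate. Cpm was 3.06 above CD103-CD11b+ DCs there, against 2.54. The mean of Krt8 and Vil1 in the CD103+CD11b+ DCs overlapped with neither of these subsets, so these values too extend the slope. For Gp2 that slope was negative (correlation of -0.71 within DC subsets). The direction of Epcam in CD103+CD11b+ against the CD103-CD11b+ DCs depended on the covariate and on whether mϕ set its slope, and the part of epithelial RNA in it was not tested further.

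**Figure D4:**
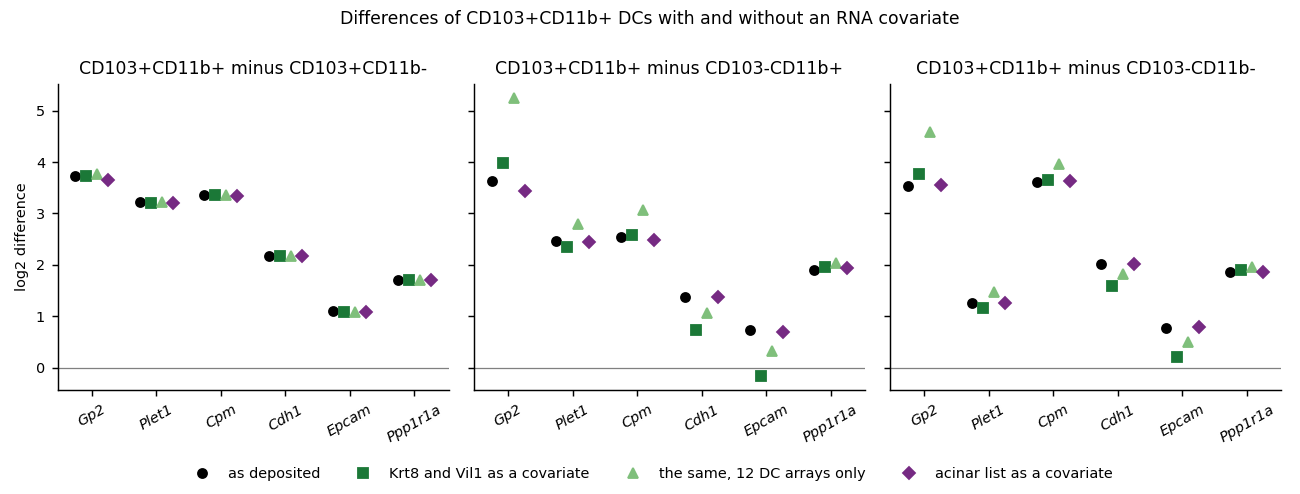
Log2 difference (vertical axis) of the 6 genes (horizontal axis) in the CD103+CD11b+ DCs minus each other DC subset, as deposited and with Krt8 and Vil1, the same on DC arrays only, or the acinar list as a covariate. Epcam against the CD103-CD11b+ DCs is the only value below 0 (-0.16), and every value against the CD103+CD11b- DCs is nearly the same with and without a covariate.

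Gp2, itself a product of acinar cells, was set beside the acinar markers. Its 2 highest values outside CD103+CD11b+ DCs, 5.30 and 5.21, were on replicate 2 of CD103+CD11b- DCs and replicate 2 of CD103-CD11b- DCs, the 2 arrays with the most acinar RNA (8.51 and 8.26), where Gp2 lay 1.55 and 1.12 above the mean of the other 2 arrays. On the array richest in acinar RNA, Gp2 lay 0.07 above the mean of the other 2 arrays in the CD103+CD11b+ DCs, 0.05 in the CD103-CD11b+ DCs and 0.04 in mϕ. Replicate 1 of CD103+CD11b+ DCs had the least acinar RNA of its population, 5.29, and the highest Gp2, 8.48.

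Within populations, Gp2 had a correlation of 0.62 with the acinar mean over the 15 arrays. With that mean as a covariate, the difference of CD103+CD11b+ DCs was 3.66 from the CD103+CD11b- DCs, 3.43 from the CD103-CD11b+ DCs and 3.56 from the CD103-CD11b- DCs. When the array of each population richest in acinar markers was left out, also added after seeing the data, the 3 differences were 4.22, 3.62 and 3.88.

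**Figure D5:**
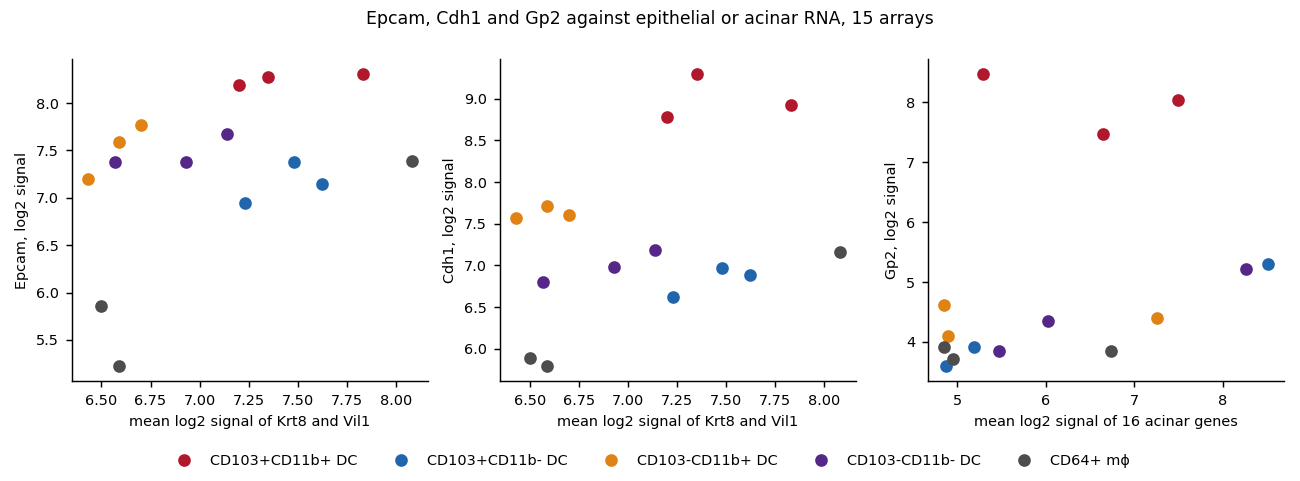
Log2 signal of Epcam and Cdh1 (vertical axes) against the mean of Krt8 and Vil1, and of Gp2 against the mean of the 16 acinar markers, with 1 point for each of the 15 arrays, coloured by population. CD103+CD11b+ DCs lie above every other array in all 3 panels, by least for Epcam (0.42), and the arrays of highest acinar RNA hold the 2 highest values of Gp2 outside that subset.

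The 6 genes were alike to different degrees. Over the 15 arrays the correlations between members ranged from 0.61, for Gp2 and Epcam, to 0.93, for Gp2 and Cpm, and all members share the peak in the CD103+CD11b+ DCs for which they were chosen. Over the 12 arrays of the other populations the closest pair was Cdh1 and Epcam, at 0.89, followed by Plet1 and Ppp1r1a at 0.79 and Plet1 and Epcam at 0.76, whereas Gp2 and Cdh1 had 0.15. The arrays share their normalization, and Cdh1 and Epcam were the 2 genes highest above their other mϕ arrays on replicate 2 of mϕ.

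Among the 741 genes whose population means spanned over 2 on the log2 scale, the 3 most like each member by Pearson's correlation over the 15 arrays were taken. Mospd4 was among them for Gp2 (0.920), Cdh1 (0.931), Cpm (0.939) and Ppp1r1a (0.961). Its mean was 6.92 in the CD103+CD11b+ DCs, 5.33 in the CD103+CD11b- DCs, 5.63 in the CD103-CD11b+ DCs, 5.46 in the CD103-CD11b- DCs and 4.62 in mϕ. Gp2 and Cpm were in each other's lists (0.929), as were Gp2 and Ppp1r1a (0.919), and Cpm was in the list of Ppp1r1a (0.910). These correlations include the CD103+CD11b+ arrays for whose high signal the members were chosen; without that population Gp2 and Cpm had 0.44 over 12 arrays. Mospd4 is on the study's list for this subset, chosen on the same arrays.

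Plet1 was nearest to Sema7a, a GPI-anchored semaphorin (0.962), Ffar2, a receptor of short-chain fatty acids (0.939), and Acap1, a regulator of the GTPase ARF6 (0.929). Epcam was nearest to Serpinb1a, a protease inhibitor (0.929), Acap1 (0.883) and Cdh1 (0.877). Cdh1 was nearest to Kcne3, a potassium channel subunit (0.947), and Siglecf, a sialic acid-binding lectin, was among those nearest to Cpm (0.922).

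Of 23 genes listed as E-cadherin and EpCAM partners, which include other junction proteins and protease inhibitors not known here to bind either, 22 were measured. Of these, 1 was higher and 2 were lower in CD103+CD11b+ than in the CD103+CD11b- DCs, where 3.20% of all genes were called: F11r, a junctional adhesion molecule, by 2.53 (limma adjusted p = 4.0e-07), and Cldn1, which encodes claudin-1 (-1.67, adjusted p = 1.5e-05), and Cd81, a tetraspanin (-2.96, adjusted p = 1.0e-07). Against CD103-CD11b+ DCs (0.461% of all genes) only Itgae, the sort marker, was called (2.54, limma adjusted p = 4.8e-06). Against CD103-CD11b- DCs (1.93% of all genes), Itgae, Jup, which encodes plakoglobin (1.23, limma adjusted p = 3.4e-06), and the tetraspanin Cd9 (1.09, adjusted p = 0.00161) were higher and Cd81 was lower (-1.32, adjusted p = 6.5e-04). At an unadjusted p under 0.05 by limma, 4 were higher and 5 lower against the CD103+CD11b- DCs, 6 and 3 against the CD103-CD11b+ DCs, 7 and 2 against the CD103-CD11b- DCs and 6 and 4 against mϕ.

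Ctnnb1, which encodes the beta-catenin bound by E-cadherin, differed by -0.49 from the CD103+CD11b- DCs, by 0.07 from the CD103-CD11b+ DCs and by 0.06 from the CD103-CD11b- DCs and was called in none of these. Cldn7, the claudin that binds EpCAM, differed by -0.10, 0.63 and 0.58 in the same order and was not called. Against mϕ (5.68% of all genes), 4 of the 22 were higher, namely Itgae (5.29), its partner chain Itgb7 (1.95), Cldn1 (1.89) and Spint2, a protease inhibitor (1.41, with a limma adjusted p of 4.5e-05 or less in all 4), and Cd81 was lower (-4.41, limma adjusted p = 6.2e-10). The median difference over the 22 was 0.00, 0.19 and 0.13 against these subsets and 0.16 against mϕ.

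Of 13 subunits and inhibitors of protein phosphatase 1, Ppp1r14a, an inhibitor best known from smooth muscle, was higher in the CD103+CD11b+ DCs in all 4 comparisons. The differences were 1.40 from the CD103+CD11b- DCs (limma adjusted p = 1.6e-04), 1.26 from the CD103-CD11b+ DCs (adjusted p = 0.00273), 1.88 from the CD103-CD11b- DCs (adjusted p = 2.1e-05) and 3.32 from mϕ (adjusted p = 8.1e-09). The study itself lists this gene for the subset, chosen on the same arrays, so its direction is no independent evidence. In the same 4 comparisons 3.20%, 0.461%, 1.93% and 5.68% of all genes were called. Ppp1r11, another inhibitor, was lower than in the CD103+CD11b- DCs (-1.03, limma adjusted p = 1.9e-05) and higher than in mϕ (1.11, adjusted p = 4.2e-06), and the median over the 13 was -0.17, -0.00, 0.04 and 0.21 against the CD103+CD11b- DCs, CD103-CD11b+ DCs, CD103-CD11b- DCs and mϕ, beside 0.03, -0.01, 0.01 and 0.01 over all genes.

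The 10 genes of M cells, the epithelial cells on which Gp2 is known, were mixed. Of all genes, 3.20%, 0.461%, 1.93% and 5.68% were called against the CD103+CD11b- DCs, CD103-CD11b+ DCs, CD103-CD11b- DCs and mϕ. Tnfaip2, a protein of membrane protrusions that is also on the study's list for this subset, was higher in the CD103+CD11b+ DCs by 1.55 than in the CD103+CD11b- DCs (limma adjusted p = 3.4e-05), by 1.11 than in the CD103-CD11b+ DCs (adjusted p = 0.00492) and by 2.22 than in the CD103-CD11b- DCs (adjusted p = 2.8e-06). Spib, a transcription factor that M cells and plasmacytoid DCs need, was higher than in the CD103+CD11b- DCs (1.14, limma adjusted p = 6.7e-04) and lower than in the CD103-CD11b- DCs (-1.63, adjusted p = 5.7e-05). Ccl9, a chemokine, was lower than in the CD103-CD11b+ DCs (-1.44, limma adjusted p = 0.00903) and mϕ (-3.15, adjusted p = 3.7e-07). Pglyrp1, which binds bacterial peptidoglycan and is likewise on the study's list, was higher than in mϕ (2.47, limma adjusted p = 6.9e-05), and Aif1, a protein of myeloid cells, was lower (-1.80, adjusted p = 3.2e-07). The median over the 10 was 0.20, -0.06, -0.06 and 0.07 in the same order.

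Of 12 other metallocarboxypeptidases, none was called higher by limma in the CD103+CD11b+ DCs in any of the 4 comparisons, with 1, 1, 3 and 3 higher at an unadjusted p under 0.05 by limma and 1, 1, 1 and 2 by the methods' t-test. Cpd and Cpq, a transmembrane and a secreted enzyme, were lower than in the CD103+CD11b- DCs (-1.41, limma adjusted p = 5.4e-06, and -2.26, adjusted p = 1.4e-05), Cpq also lower than in mϕ (-2.36, adjusted p = 4.2e-06). Of 9 other zona pellucida domain proteins, the family of Gp2, none was called by limma against a DC subset, where 1 was higher, 1 lower and 0 either way at an unadjusted p under 0.05 and the methods' t-test had 0, 0 and 2 higher. Eng, which encodes endoglin, was lower than in mϕ (-1.65, limma adjusted p = 2.1e-06). Of 10 genes known from Langerhans cells, the Epcam-bearing DCs of the epidermis, Ly75, an endocytic receptor, was higher than in the CD103-CD11b+ DCs (1.16, limma adjusted p = 4.6e-04) and lower than in the CD103+CD11b- DCs (-1.48, adjusted p = 4.2e-06). Csf1r, the receptor of M-CSF, went the other way, lower than in the CD103-CD11b+ DCs (-1.74, limma adjusted p = 2.4e-04) and higher than in the CD103+CD11b- DCs (1.88, adjusted p = 1.0e-05), and no other gene of the 10 was called in these comparisons. Against CD103-CD11b- DCs Csf1r alone was called (-1.29, limma adjusted p = 6.9e-04). Against mϕ, where 5.68% of all genes were called, 2 of the 10 were higher and 4 lower. The medians were 0.06, 0.02, 0.00 and 0.00 for the carboxypeptidases, 0.04, -0.04, 0.09 and -0.02 for the zona pellucida domain proteins and 0.14, -0.12, 0.07 and -0.26 for the Langerhans cell genes against the CD103+CD11b- DCs, CD103-CD11b+ DCs, CD103-CD11b- DCs and mϕ.

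Markers of other immune cells were read on the same arrays. The mean of 9 measured of 10 mϕ markers was 6.32 to 6.61 in the CD103+CD11b+ DCs, against 5.71 to 5.80 in the CD103+CD11b- DCs, 7.49 to 7.89 in the CD103-CD11b+ DCs, 6.0 to 7.39 in the CD103-CD11b- DCs and 10.94 to 10.98 in mϕ. The mean of 6 measured of 7 lymphocyte and plasmacytoid markers was 6.46 to 6.99 in the CD103+CD11b+ DCs, against 6.09 to 6.18 in the CD103+CD11b- DCs, 6.57 to 7.23 in the CD103-CD11b+ DCs, 7.50 to 7.82 in the CD103-CD11b- DCs, the subset next to CD103+CD11b+ DCs in Plet1, and 7.34 to 7.75 in mϕ. Of these, Cd79a of B cells, Siglech of plasmacytoid DCs and Ly6d were lower in CD103+CD11b+ than in the CD103-CD11b- DCs, by differences of -1.84, -1.79 and -2.38 (limma adjusted p = 6.5e-04, 4.9e-04 and 1.9e-04). Their part in the Plet1 level of CD103-CD11b- DCs was not tested. Between CD103+CD11b+ and CD103-CD11b- DCs, 1.93% of all genes were called.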

How the data were processed

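RNA of 5 sorted populations was measured on 15 GeneChip Mouse Gene 1.0 ST arrays, 3 for each population. The deposited values are log2 signals that the authors made by RMA, which corrects the background, applies quantile normalization and summarizes probes into probesets; normalization was not repeated here, and it removes differences in total RNA. Array medians were 5.00 to 5.14, and with 3 arrays the number of arrays limits the precision. Of 35556 probesets, 21789 had 1 gene symbol in the platform annotation, 1621 had several and 12146 had none listed; the probeset with the highest mean was kept for each of 19938 genes. One model across all 15 arrays was fitted with limma 3.58.1 in R 4.3.3 (lmFit, contrasts, eBayes), with Benjamini-Hochberg adjustment over all genes; calls needed a log2 difference past 1 in size with an adjusted p under 0.01, after the study's thresholds. The fit was tested on simulated data. Named genes were the 6 members, Krt8, Vil1, the sort genes, the 3 genes most like each member, and up to 4 called genes of each list with the largest difference; Ctrb1, Ctnnb1, Cldn7, Krt18, Krt19 and Fabp2 were named after their values were seen, and not every gene the rule allows is printed. The members and the lists were chosen with earlier results of these data known. Differences of members that involve CD103+CD11b+ DCs carry no test. Alternatives covered normalization, probeset choice, a filter on dim genes, the fit, the thresholds, the methods' t-test, the replicate number as a block, each array left out, and epithelial or acinar signal as a covariate. Motifs were searched with Python 3.11.15.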

Additional observations from a re-analysis of the deposited data

How the results depend on the processing

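No called difference of the 6 genes among the other 4 populations changed sign under any alternative run. With 3 arrays a population, differences near the thresholds were called or not called by small changes. Counts follow in the order CD103-CD11b+ minus CD103+CD11b-, CD103-CD11b- minus CD103+CD11b-, CD103-CD11b- minus CD103-CD11b+, then mϕ minus CD103+CD11b-, mϕ minus CD103-CD11b+ and mϕ minus CD103-CD11b-. All genes called were 633, 530, 161, 1401, 1033 and 1256; limma's treat at a log2 limit of 1 gave 190, 116, 11, 616, 351 and 451, and the methods' t-test at its unadjusted threshold gave 3888, 3307, 1960, 4719, 3753 and 4035. For CD103-CD11b- minus CD103-CD11b+ DCs, that test after Benjamini-Hochberg gave 10 and 2 arrays per population, an alternative chosen after seeing the data, gave 91; leaving out 1 array each gave 102 (without CD103-CD11b+ replicate 3) to 202. For CD103+CD11b+ DCs minus CD103+CD11b- DCs, minus CD103-CD11b+ DCs, minus CD103-CD11b- DCs and minus mϕ, with 639, 92, 384 and 1132 genes called, treat gave 182, 5, 48 and 465 and the unadjusted t-test 4288, 1880, 2939 and 4277; its Benjamini-Hochberg form gave 1192, 6 and 139 against the DC subsets. Against CD103-CD11b+ DCs, 2 arrays per population gave 44, the Krt8 and Vil1 covariate on the 12 DC arrays, also added after seeing the data, gave 50, and leaving out 1 array gave 51 (without CD103+CD11b+ replicate 1) to 104 (without mϕ replicate 2), with 57 and 56 without CD103-CD11b+ replicates 1 and 3.

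Of the 6 members, 0, 1, 0, 1, 3 and 1 were called. In the first comparison the methods' t-test called 1 at either threshold, the Krt8 and Vil1 covariate 2 (Cdh1 and Epcam) and the epithelial list as a covariate, added after seeing the data, 1. In the second, treat called 0. In the third, a filter on dim genes called 1, an adjusted p under 0.05 called 2, the unadjusted t-test 3, and leaving out 1 array 0 to 1. In the fourth, equal array medians, array weights, either t-test threshold and each covariate called 2, 2 arrays per population 3, and leaving out 1 array 1 to 2. In the fifth, treat called 1 (Plet1, with Cdh1 and Cpm lost) and the unadjusted t-test 5, and leaving out 1 array gave 2 to 4. In the sixth, the dim-gene filter, array weights, an adjusted p under 0.05, the unadjusted t-test and both epithelial covariates called 2, 2 arrays per population 3, and leaving out 1 array 1 to 3, the highest without mϕ replicate 2.

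The differences of Krt8 (1.04) and Vil1 (0.74) in CD103+CD11b+ against the CD103-CD11b+ DCs passed only the unadjusted threshold of the methods' t-test, as did those of Krt8 (-0.87) and Vil1 (-0.87) in CD103-CD11b+ and of Vil1 (-0.71) in CD103-CD11b- against the CD103+CD11b- DCs; the first pair were 0.91 to 1.24 and 0.50 to 0.93 with 1 array left out. Among differences that involve CD103+CD11b+ DCs, which carry no test, that of Epcam from the CD103-CD11b+ DCs alone reversed, to -0.16 with Krt8 and Vil1 as a covariate and to -0.12 with the epithelial list, against 0.74; the cause was not tested.

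The replicate numbers share no stated animal or day. Same-numbered arrays correlated at -0.09 to 0.38 in their deviations (mean 0.12, 18 of 30 pairs over 0.1), against a mean of -0.06 for other numbers. The array richest in acinar markers was replicate 2 in every population except the CD103-CD11b+ DCs, where it was replicate 3. Whether same-numbered arrays were prepared together was not tested. With the replicate block, 645, 543, 173, 1412, 1050 and 1265 genes and 0, 1, 0, 1, 3 and 1 members were called.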
